A study of Mus musculus with 8 samples.

Results

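The genes described here are 35 mouse genes of cholesterol and fatty acid synthesis, taken by symbol from the 55292 features of a table of read counts per gene. They comprise 19 enzymes of isoprenoid and cholesterol synthesis, 7 genes that sense, carry or dispose of sterol, and 9 enzymes that build and modify fatty acids. All 35 were present and all 35 passed the filter on low counts, which 17342 features passed. The cells were E14, a line of embryonic stem cells from mouse strain 129/Ola, grown on gelatin with serum and leukaemia inhibitory factor, and their polyadenylated RNA was sequenced. The 3 groups were lncSmad7-/- cells labelled as transfected with Smad7, whose descriptions name 24 h, lncSmad7-/- cells that were not transfected, and untreated wild-type cells, with 2 libraries in each. They are called the Smad7-labelled knockout, the knockout and wild type. lncSmad7 is a long noncoding RNA, and both knockout groups lack it by their labels, so the Smad7-labelled knockout differs from wild type in genotype and in transfection. The series describes the replicates as biological and does not say whether the knockout is a single clone or whether replicates are separate cultures, so a p-value here reflects the spread among libraries, which may be technical.

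Cholesterol is made from acetyl-CoA through mevalonate, isoprenoid diphosphates, squalene and lanosterol, and fatty acids are made from the same acetyl-CoA by carboxylation and chain building. Both pathways are driven by SREBP transcription factors, which are held in the endoplasmic reticulum by INSIG proteins when sterol is plentiful and are carried by SCAP to the Golgi for cleavage when it is scarce. Excess cholesterol is esterified or exported, in part through genes switched on by the liver X receptors. Embryonic stem cells divide fast and make much of their own membrane lipid.

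The labels were checked on the target genes. The lncSmad7 feature had raw counts of 167 and 207 in the Smad7-labelled knockout, 140 and 105 in the knockout and 237 and 221 in wild type. It was lower in the knockout than in wild type (log2 fold −1.05, SE 0.12, adjusted p = 3.0e-14). It stood higher in the Smad7-labelled knockout than in the knockout (adjusted p = 9.3e-09, log2 fold 0.79, SE 0.13), by edgeR's quasi-likelihood test with Benjamini-Hochberg adjustment over all features tested, as for every adjusted p below. No source used here places the feature relative to the deleted part, so reads that remain in knockout cells do not test the deletion. Smad7 itself had 93.8 and 99.4 CPM in the Smad7-labelled knockout, 75.5 and 69.6 CPM in the knockout, and 97.6 and 97.7 CPM in wild type, where CPM are counts scaled to library size with TMM factors. It was higher in the Smad7-labelled knockout than in the knockout (adjusted p = 3.3e-14, log2 fold 0.41, SE 0.048), and the Smad7-labelled and wild-type libraries overlapped. Since the lncSmad7 feature rose as well and Smad7 was not above its wild-type level with TMM factors, each direction drawn from the Smad7-labelled libraries rests on their label. Smad7 was higher in the Smad7-labelled knockout than in wild type with scaling by library size (log2 fold 0.38, adjusted p = 3.4e-13).

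Total counts per library ran from 13392941 to 20209760, with the Smad7-labelled libraries the shallowest. Mitochondrial transcripts took 2.48% and 2.33% of counts in the Smad7-labelled knockout, 1.40% and 1.37% in the knockout, and 1.58% and 1.53% in wild type. Of 631 X-linked genes tested, 428 were higher in the knockout than in wild type, with a median log2 fold of 0.87 against 0.0046 for autosomal genes. Of 6 Y-linked genes tested, 4 were lower in the knockout than in wild type, with a median log2 fold of −3.77, and none was lower in the Smad7-labelled knockout than in the knockout, with a median of 0.86. The 8 stem cell markers summed to 4385 and 4370 CPM in the Smad7-labelled knockout and 6580 and 6676 CPM in the knockout. In wild type they summed to 4850 and 4926 CPM, so these markers were read in every group. In the knockout over wild type 7 were higher and 1, Utf1, was lower, beside 34.5% and 33.3% of all features. In the Smad7-labelled knockout over the knockout 0 were higher and 7 lower, beside 37.8% and 36.8%. Utf1 averaged 66.9 CPM in the Smad7-labelled knockout, 163 CPM in the knockout and 305 CPM in wild type. The 8 markers of primitive and visceral endoderm summed to 175 and 182 CPM in the Smad7-labelled knockout, 151 and 144 CPM in the knockout, and 404 and 396 CPM in wild type, and 8 of 8 were lower in the knockout than in wild type. Fibroblast and feeder cell markers summed to at most 8.76 CPM in a library, with Twist2 at 0 in all 6. In bulk RNA, fewer cells of a type and less RNA per cell cannot be told apart. The part of any of these differences in the results below was not tested.

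Promoter sequence was available from RefSeq (GRCm38.p6) for 28 of the 35 genes, as 36 windows of 300 bases that run from 250 bases before to 50 bases after a start. Fdps, Fdft1, Sqle, Stard4, Scd1, Scd2 and Fads1 had no entry. Both strands were searched for the sterol response element TCACNCCAC, its looser form TCACNNCAC, which contains it, the E-box TCACGTGA and the NF-Y box CCAAT. The box CCAAT occurred in 24 of the 36 windows, in 23 genes, against 37.4% of all 32851 windows in the table. TCACNCCAC occurred in 1 gene, Hmgcs1, against 1.24% of all windows. TCACNNCAC occurred in 4 genes, Hmgcs1, Msmo1, Hsd17b7 and Dhcr7, against 3.77% of all windows. TCACGTGA occurred in none of the 36, against 0.974% of all windows. A match describes letters in a window and shows no binding.

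The 4 stretches printed here precede genes that the results turn on. Hmgcs1 is the member whose window holds TCACNCCAC, Mvd and Fasn fell together in the Smad7-labelled knockout relative to the knockout, and Insig1 encodes the feedback protein. Each is written 5′ to 3′ on the gene's own strand and ends before the annotated start. Capitals mark CCAAT on either strand, read as ATTGG where it lies on the other strand, and in Hmgcs1 also TCACNNCAC.
Hmgcs1, chr13:119690101-119690350, plus strand: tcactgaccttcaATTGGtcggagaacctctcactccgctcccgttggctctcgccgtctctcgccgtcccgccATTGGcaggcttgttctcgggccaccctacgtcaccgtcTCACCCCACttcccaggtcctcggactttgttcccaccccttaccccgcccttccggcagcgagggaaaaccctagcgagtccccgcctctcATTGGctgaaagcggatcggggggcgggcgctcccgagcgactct
Mvd, chr8:122443423-122443672, minus strand: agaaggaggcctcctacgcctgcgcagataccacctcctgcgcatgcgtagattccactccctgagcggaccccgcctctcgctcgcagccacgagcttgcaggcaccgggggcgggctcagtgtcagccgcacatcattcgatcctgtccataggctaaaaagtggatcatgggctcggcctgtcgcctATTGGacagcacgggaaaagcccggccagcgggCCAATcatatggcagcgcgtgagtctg
Insig1, chr5:28071162-28071362, plus strand: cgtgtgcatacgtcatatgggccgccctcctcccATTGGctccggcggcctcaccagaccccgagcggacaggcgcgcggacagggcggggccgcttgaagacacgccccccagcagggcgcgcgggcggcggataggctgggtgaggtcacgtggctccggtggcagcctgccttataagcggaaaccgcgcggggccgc
Fasn, chr11:120824548-120824797, minus strand: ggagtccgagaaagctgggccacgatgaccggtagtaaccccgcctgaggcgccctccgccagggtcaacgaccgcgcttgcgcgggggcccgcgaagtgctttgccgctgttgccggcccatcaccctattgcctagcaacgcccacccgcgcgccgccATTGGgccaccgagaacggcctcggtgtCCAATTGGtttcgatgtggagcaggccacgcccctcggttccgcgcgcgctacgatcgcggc
The stretch before Hmgcs1 holds 3 CCAAT matches, that before Mvd 2, that before Insig1 1 and that before Fasn 3, of which 2 overlap as CCAATTGG. Only the stretch before Hmgcs1 holds TCACNNCAC. Whether these matches bear on the levels of the 4 genes was not tested.

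The knockout and wild type differ in lncSmad7 by their labels and also across X-linked and Y-linked genes. In the knockout relative to wild type, more of these genes were lower than higher. Idi1 fell the most, and Sqle, Hsd17b7, Elovl6, Scd2, Hmgcs1, Msmo1 and Acaca also fell. Ebp, Nsdhl, Acss2, Insig2, Tm7sf2, Insig1 and Fads1 rose. Of the 35 genes, 8 were higher, 19 were lower and 8 did not pass an adjusted p of 0.05, while 34.5% of all features tested were higher and 33.3% were lower. By at least 1 log2 unit 2 were higher and 1 was lower, against 14.2% and 8.74% of all features. Their median log2 fold was −0.17, and that of all features was 0.02. The summed CPM of the 35 genes were 3614 and 3528 in the knockout and 4334 and 4282 in wild type. By role, 4 of the 19 enzymes of isoprenoid and cholesterol synthesis were higher and 10 were lower, 2 of the 7 sterol sensing and handling genes were higher and 3 were lower, and 2 of the 9 fatty acid enzymes were higher and 6 were lower. Scaling by library size moved the median of all features to 0.17. Then 10 members were higher and 11 lower, against 41.8% and 25.9% of all features. The lower ones included 6 isoprenoid and cholesterol enzymes and no sensing and handling gene. With that scaling the calls of Acat2, Fdft1, Lss, Cyp51, Srebf1, Srebf2, Scap and Acly were lost.

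In the Smad7-labelled knockout relative to the knockout, the enzymes that supply and build the fatty acid chain, Acly, Acaca and Fasn, fell by 1.77-fold to 2.03-fold, whereas the desaturase Scd2 and the elongase Elovl6 rose. Among cholesterol enzymes Ebp, Mvd, Mvk, Acat2 and Sqle fell, and Ggps1, Sc5d and Idi1 rose. Of the 35 genes, 13 were higher, 15 were lower and 7 did not pass, while 37.8% of all features tested were higher and 36.8% were lower. By at least 1 log2 unit none was higher and 2 were lower, against 18.9% and 6.85% of all features. Their median log2 fold was −0.14, and that of all features was 0.04. The summed CPM were 3039 and 3049 in the Smad7-labelled knockout and 3614 and 3528 in the knockout. By role, 5 of the 19 isoprenoid and cholesterol enzymes were higher and 11 were lower, 4 of the 7 sensing and handling genes were higher and 1 was lower, and 4 of the 9 fatty acid enzymes were higher and 3 were lower. Scaling by library size moved the median of all features to 0.29. Then 17 members were higher and 9 lower, against 49.6% and 25.9% of all features. The lower ones included 6 isoprenoid and cholesterol enzymes and no sensing and handling gene. By DESeq2, and with no filter on low counts, 2 of the isoprenoid and cholesterol enzymes were higher, beside 28.8% and 19.8% of all features. Without the knockout library of replicate 2, fewer of the 35 genes and a smaller share of all features passed.

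**Figure D1:**
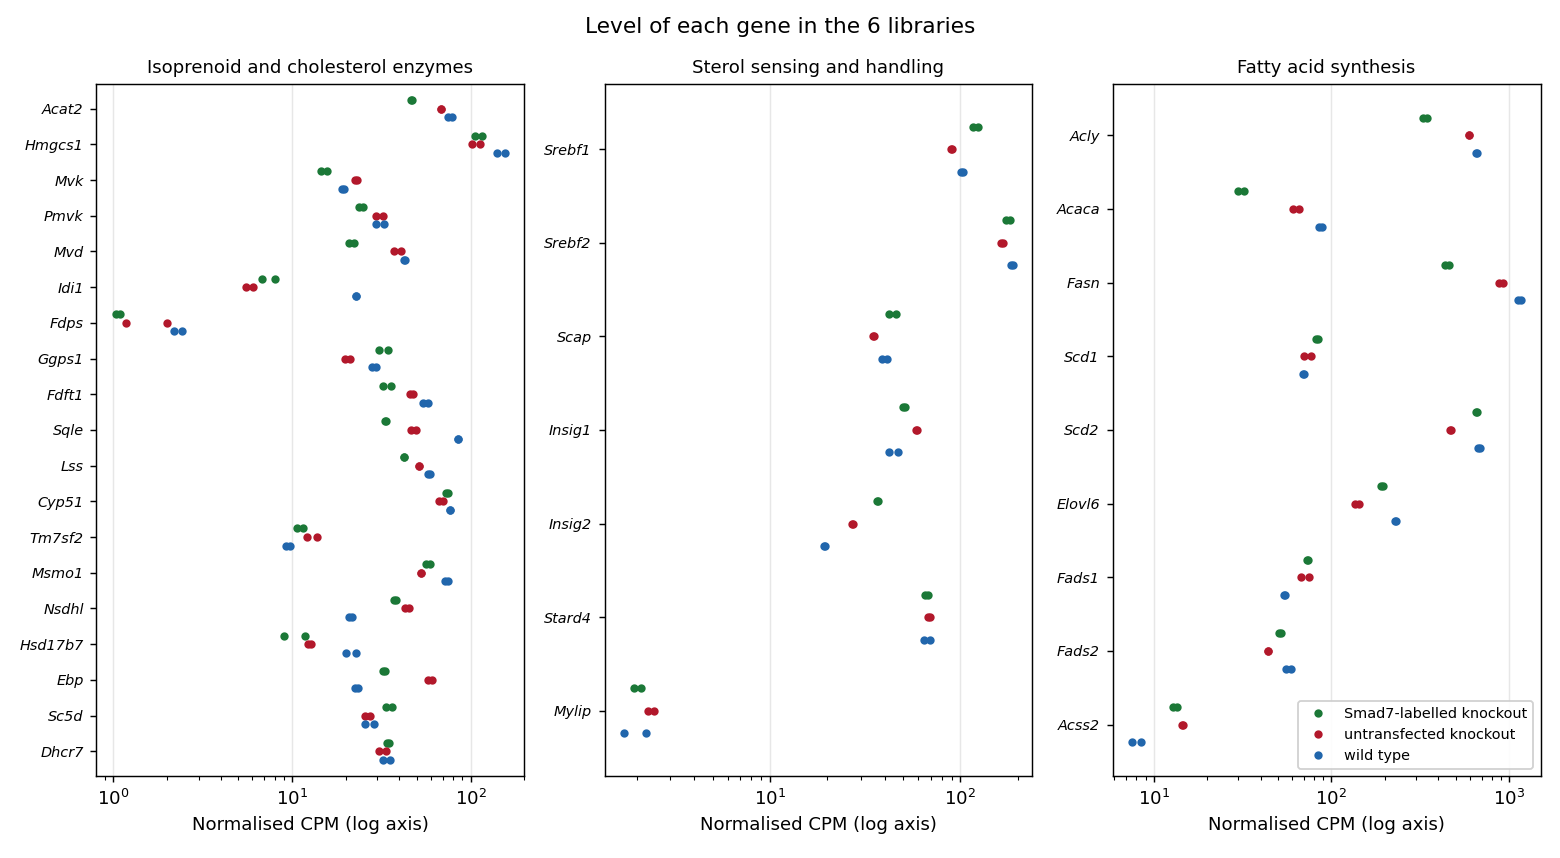
Level of each of the 35 genes in the 6 libraries, in normalised CPM on a log axis, by role. Each point is a library, in green for the Smad7-labelled knockout, red for the knockout and blue for wild type. Replicate points lie close together for most genes, and Idi1, Ebp, Nsdhl, Insig2, Acaca and Fasn show all 3 groups apart.

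**Figure D2:**
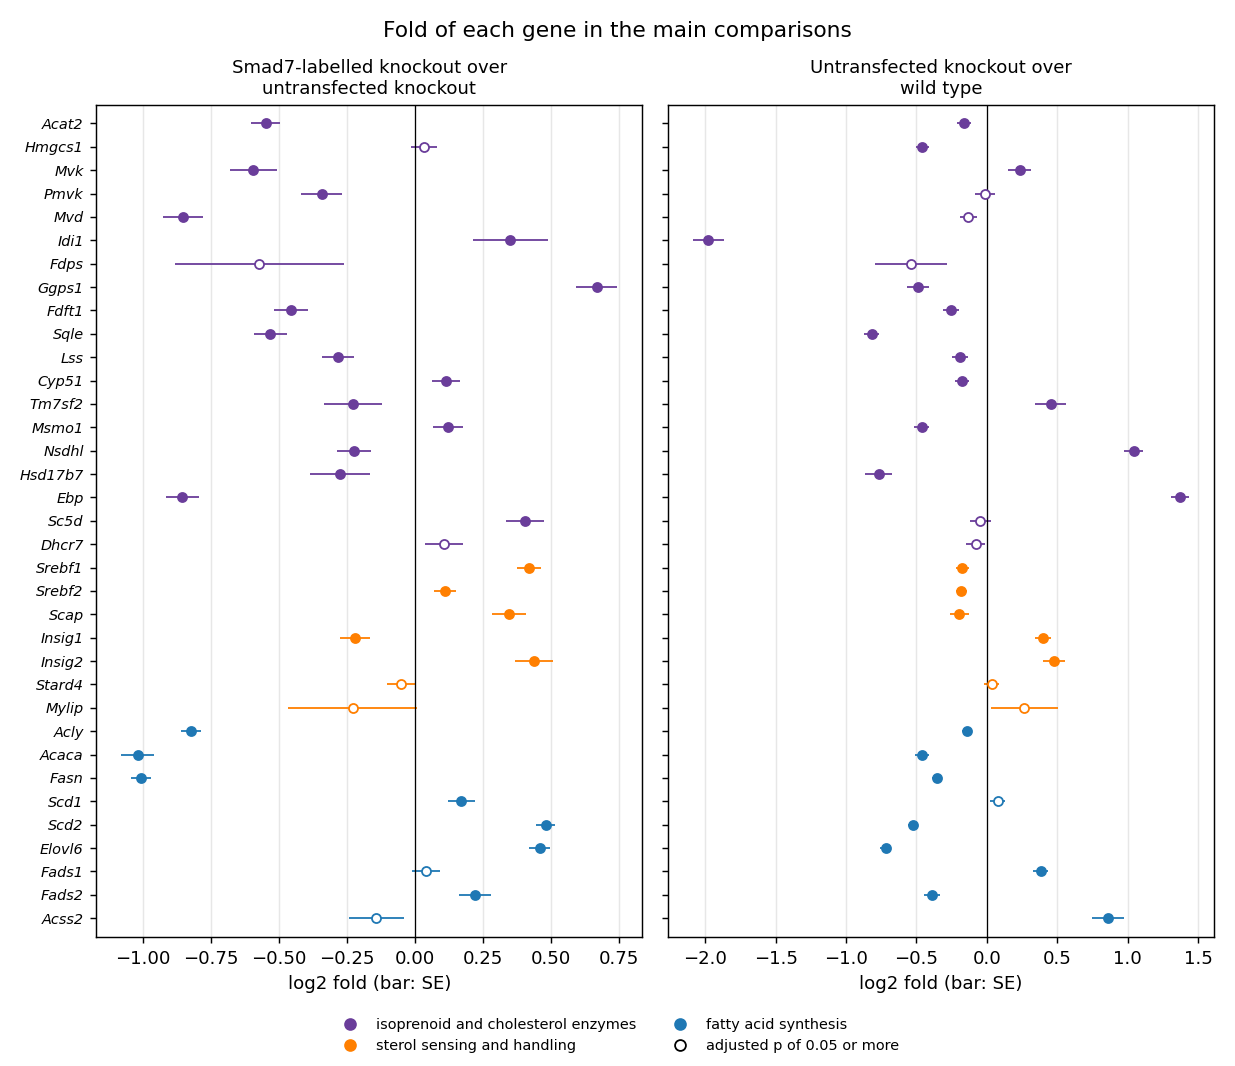
Log2 fold of each gene in the Smad7-labelled knockout over the knockout on the left and in the knockout over wild type on the right, with bars of 1 SE and colours for the roles. The horizontal scales differ between the panels, and open circles mark an adjusted p of 0.05 or more. Idi1 is the lowest gene on the right, and Acaca and Fasn are the lowest on the left.

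The comparisons share the knockout libraries, so a low knockout value lowers the fold over wild type and raises the fold of the Smad7-labelled knockout over it. The values of the 2 comparisons are therefore set side by side and no overlap between them is read as a result. In these libraries 10 genes were lower in the knockout than in wild type and higher in the Smad7-labelled knockout than in the knockout, and 8 genes were lower in both. The share of all features with each pattern was not counted, so these counts do not show whether the members differ from other genes. Insig2 was higher in both. Fdps, Dhcr7, Stard4 and Mylip passed in neither.

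The early steps of the pathway, which turn acetyl-CoA into mevalonate and then into isopentenyl diphosphate, differed from enzyme to enzyme. Acat2, the cytosolic thiolase of the opening step, had 47.2 and 46.2 CPM in the Smad7-labelled knockout, 68.3 and 68.3 CPM in the knockout, and 78.6 and 74.3 CPM in wild type. The groups did not overlap, and it fell in the Smad7-labelled knockout relative to the knockout (log2 fold −0.55, SE 0.055, adjusted p = 9.6e-18). The smaller fall in the knockout relative to wild type (log2 fold −0.16, SE 0.050, adjusted p = 0.0027) was lost without the wild-type library of replicate 1, at −0.12 and an adjusted p of 0.085. Hmgcs1, the cytosolic HMG-CoA synthase at chromosome 13, 119690379 to 119708260, plus strand of GRCm38, had 115 and 106 CPM in the Smad7-labelled knockout, 113 and 102 CPM in the knockout, and 156 and 141 CPM in wild type. It fell in the knockout relative to wild type (log2 fold −0.46, SE 0.046, adjusted p = 1.2e-13), while the Smad7-labelled knockout and the knockout overlapped and gave a log2 fold of 0.03, SE 0.048 (adjusted p = 0.52), which passed with scaling by library size at 0.28 (adjusted p = 1.1e-07). Among the 28 genes with a promoter window, only Hmgcs1 had a match to TCACNCCAC. Of the exon bases of Hmgcs1, 12.12% are shared with a transcript on the other strand that had 14 counts over all libraries, so its level is uncertain.

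Mvk, mevalonate kinase, had 15.7 and 14.5 CPM in the Smad7-labelled knockout, 23.04 and 22.6 CPM in the knockout, and 19.6 and 19.1 CPM in wild type, with the knockout highest and no overlap between groups. It fell in the Smad7-labelled knockout relative to the knockout (log2 fold −0.59, SE 0.087, adjusted p = 6.9e-10). Its rise in the knockout relative to wild type (log2 fold 0.23, adjusted p = 0.0084) was lost by DESeq2 at 0.18 (adjusted p = 0.24), with offsets for GC content and length at 0.03 (adjusted p = 0.78), without the knockout library of replicate 1 at 0.22 (adjusted p = 0.050) and without the wild-type library of replicate 2 at 0.21 (adjusted p = 0.064). Pmvk, phosphomevalonate kinase, had 24.97 and 23.8 CPM in the Smad7-labelled knockout, 29.4 and 32.4 CPM in the knockout, and 29.5 and 32.8 CPM in wild type. It fell in the Smad7-labelled knockout relative to the knockout (log2 fold −0.34, adjusted p = 1.8e-05), a call lost with scaling by library size at −0.10 (adjusted p = 0.24), and the knockout and wild type overlapped (log2 fold −0.01, or −0.17 with an adjusted p of 0.025 under GC content and length offsets).

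Mvd, the decarboxylase that makes isopentenyl diphosphate, lies at chromosome 8, 122433601 to 122443422, minus strand. It had 20.8 and 22.2 CPM in the Smad7-labelled knockout, 37.2 and 40.8 CPM in the knockout, and 42.3 and 42.9 CPM in wild type, with the Smad7-labelled libraries well below the rest. Its fall in the Smad7-labelled knockout relative to the knockout was 1.81-fold (log2 fold −0.85, SE 0.072, adjusted p = 2.8e-22). The difference between the knockout and wild type did not pass (log2 fold −0.13, SE 0.063, adjusted p = 0.059), though it passed with RLE scaling, at −0.19 and an adjusted p of 0.0058, and without the knockout library of replicate 2, at −0.18 and an adjusted p of 0.032.

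Idi1, the isomerase that makes the allylic partner of isopentenyl diphosphate, was the gene of the 35 that differed most between the knockout and wild type. It lies at chromosome 13, 8885501 to 8892451, plus strand of GRCm38 and had 8.00 and 6.81 CPM in the Smad7-labelled knockout, 6.01 and 5.52 CPM in the knockout, and 22.7 and 22.9 CPM in wild type. Both groups of knockout cells were far below wild type, and no library overlapped between any 2 groups. The fall in the knockout was 3.94-fold (log2 fold −1.98, SE 0.11, adjusted p = 3.1e-38) and held its call under every scaling, filter, tool and left-out library tried. The Smad7-labelled knockout was slightly above the knockout (adjusted p = 0.018, log2 fold 0.35, SE 0.14), and that call was lost without the Smad7-labelled library of replicate 1 (0.23, adjusted p = 0.22), without the knockout library of replicate 2 (0.27, adjusted p = 0.15), by DESeq2 (adjusted p = 0.084), with no filter on low counts (adjusted p = 0.064) and with GC content and length offsets (adjusted p = 0.56). Of the exon bases of Idi1, 9.22% are shared with a transcript on the other strand that had 4 counts over all libraries.

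The branch point enzymes make farnesyl diphosphate and geranylgeranyl diphosphate, the lipids that protein prenylation uses. Fdps, farnesyl diphosphate synthase, was read from few counts, 16 and 20 in the Smad7-labelled knockout, 23 and 38 in the knockout and 41 and 39 in wild type. It shares 26.71% of its exon bases with the protein-coding model Gm43738, to which no read was assigned, and the sources used here do not say how shared reads were counted, so its level is uncertain. Neither main comparison passed for Fdps (adjusted p = 0.056 for the knockout over wild type and 0.087 for the Smad7-labelled knockout over the knockout). The knockout over wild type passed with RLE scaling (log2 fold −0.59, adjusted p = 0.033) and with a filter of 1 CPM in 4 libraries (−0.53, adjusted p = 0.046). It also passed with offsets for GC content and length (−0.67, adjusted p = 0.015). The folds moved with the knockout libraries too. Without replicate 2 the log2 fold of the knockout over wild type went from −0.54 to −0.95. Without replicate 1 that of the Smad7-labelled knockout over the knockout went from −0.57 to −0.93.

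Ggps1, geranylgeranyl diphosphate synthase, had 34.5 and 30.9 CPM in the Smad7-labelled knockout, 21.1 and 19.9 CPM in the knockout, and 27.96 and 29.5 CPM in wild type, with the knockout lowest and no overlap. It fell in the knockout relative to wild type (log2 fold −0.49, SE 0.077, adjusted p = 9.8e-09) and stood higher in the Smad7-labelled knockout than in the knockout (adjusted p = 1.4e-14, log2 fold 0.67, SE 0.076). With offsets for GC content and length per library the fold of the knockout over wild type turned to 0.09 (adjusted p = 0.32) and that of the Smad7-labelled knockout over the knockout shrank to 0.14 (adjusted p = 0.070).

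The squalene arm commits farnesyl diphosphate to sterol, and its 3 genes stood in the same order, with the Smad7-labelled knockout lowest, the knockout between and wild type highest. Fdft1, squalene synthase, had 32.5 and 35.6 CPM in the Smad7-labelled knockout, 47.8 and 45.9 CPM in the knockout, and 57.7 and 54.1 CPM in wild type. Its log2 folds were −0.46 in the Smad7-labelled knockout over the knockout (adjusted p = 7.1e-11) and −0.25 in the knockout over wild type (adjusted p = 4.2e-05), the second of which was lost with scaling by library size at −0.11 (adjusted p = 0.083). Sharing of 18.31% of its exon bases with Ctsb makes its level uncertain.

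Sqle, squalene epoxidase, a rate-limiting step of the late pathway, lies at chromosome 15, 59315077 to 59331192, plus strand of GRCm38. It had 33.7 and 33.1 CPM in the Smad7-labelled knockout, 49.7 and 46.7 CPM in the knockout, and 84.8 and 85.3 CPM in wild type. The 3 groups were far apart relative to the gaps between replicates. It fell 1.45-fold in the Smad7-labelled knockout relative to the knockout (adjusted p = 4.1e-14, log2 fold −0.53, SE 0.062) and 1.76-fold in the knockout relative to wild type (log2 fold −0.82, SE 0.052, adjusted p = 7.7e-32), and both calls held under every scaling, filter, tool and left-out library tried. Lss, lanosterol synthase, had 42.2 and 42.2 CPM in the Smad7-labelled knockout, 51.6 and 51.2 CPM in the knockout, and 57.98 and 59.3 CPM in wild type. It fell in both comparisons (log2 folds −0.28 and −0.19), and both calls were lost with scaling by library size (−0.04 and −0.05).

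The tail of the pathway removes methyl groups from lanosterol and rearranges its double bonds. Cyp51, the lanosterol demethylase, was among the steadiest members, with 75.1 and 72.5 CPM in the Smad7-labelled knockout, 66.3 and 69.9 CPM in the knockout, and 76.7 and 77.2 CPM in wild type. It passed at a log2 fold of −0.18 in the knockout over wild type (adjusted p = 0.0011), and at 0.11 in the Smad7-labelled knockout over the knockout (adjusted p = 0.034). The second call was lost when either knockout library, either wild-type library or the Smad7-labelled library of replicate 1 was left out, with adjusted p from 0.055 to 0.435, among other settings. Msmo1, the sterol methyl oxidase that acts after it, had 58.9 and 56.3 CPM in the Smad7-labelled knockout, 53.1 and 52.6 CPM in the knockout, and 71.5 and 74.3 CPM in wild type. It fell in the knockout relative to wild type (log2 fold −0.46, SE 0.053, adjusted p = 1.6e-14), while its small rise in the Smad7-labelled knockout (log2 fold 0.12, adjusted p = 0.039) was lost without any of the same 5 libraries, with adjusted p from 0.092 to 0.27, among other settings.

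Tm7sf2, a sterol reductase, was low at 11.5 and 10.7 CPM in the Smad7-labelled knockout, 12.1 and 13.8 CPM in the knockout, and 9.20 and 9.73 CPM in wild type. It rose in the knockout relative to wild type (log2 fold 0.45, SE 0.11, adjusted p = 1.4e-04), and its fall in the Smad7-labelled knockout (log2 fold −0.23, adjusted p = 0.047) was lost without the Smad7-labelled library of replicate 2 (−0.18), without the knockout library of replicate 2 (−0.15) and, among other settings, with scaling by library size, where it stood at 0.02. Of its exon bases 12.08% are shared with Vps51, so its level is uncertain. Hsd17b7, the ketosteroid reductase of the demethylation complex, had 11.9 and 9.03 CPM in the Smad7-labelled knockout, 12.3 and 12.8 CPM in the knockout, and 22.8 and 19.96 CPM in wild type. It fell in the knockout relative to wild type (log2 fold −0.77, SE 0.095, adjusted p = 1.2e-12). A further fall in the Smad7-labelled knockout (log2 fold −0.28, adjusted p = 0.020) rested on the Smad7-labelled library of replicate 2 and the knockout library of replicate 2, without which it stood at −0.08 (adjusted p = 0.60) and −0.27 (adjusted p = 0.060), and it was −0.03 with scaling by library size and lost by DESeq2 (adjusted p = 0.17).

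Nsdhl and Ebp are the X-linked members, and they were the strongest risers in the knockout. Nsdhl, the dehydrogenase of the demethylation complex, lies at chromosome X, 72918557 to 72958514, plus strand. It had 38.3 and 37.05 CPM in the Smad7-labelled knockout, 42.7 and 45.2 CPM in the knockout, and 20.8 and 21.8 CPM in wild type. Both knockout groups were above wild type, with a 2.06-fold rise in the knockout (adjusted p = 4.8e-30, log2 fold 1.04, SE 0.070). The Smad7-labelled knockout was a little below the knockout (log2 fold −0.22, SE 0.063, adjusted p = 9.1e-04), which scaling by library size turned to 0.02 (adjusted p = 0.73) and a filter of 1 CPM in 4 libraries left at −0.12 (adjusted p = 0.071). Ebp, the sterol isomerase, lies at chromosome X, 8185329 to 8193512, minus strand. It had 32.1 and 33.3 CPM in the Smad7-labelled knockout, 60.5 and 58.1 CPM in the knockout, and 22.5 and 23.3 CPM in wild type, with no overlap between groups. It rose 2.59-fold in the knockout relative to wild type (log2 fold 1.37, SE 0.065, adjusted p = 9.5e-45) and fell 1.81-fold in the Smad7-labelled knockout relative to the knockout (log2 fold −0.86, SE 0.061, adjusted p = 6.5e-28). The X-linked genes as a whole had a median log2 fold of 0.10 in the Smad7-labelled knockout over the knockout and 0.87 in the knockout over wild type. Loss of lncSmad7 and the difference across X-linked and Y-linked genes fall on the same libraries. They cannot be told apart for these 2 genes, nor for the other members.

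For the last steps no difference between the knockout and wild type passed. Sc5d, the lathosterol desaturase, had 36.5 and 33.7 CPM in the Smad7-labelled knockout, 27.4 and 25.5 CPM in the knockout, and 25.7 and 28.9 CPM in wild type, and was higher in the Smad7-labelled knockout than in the knockout (adjusted p = 1.8e-07, log2 fold 0.40, SE 0.071). The knockout and wild type overlapped (log2 fold −0.04, adjusted p = 0.61), and GC content and length offsets gave 0.21 (adjusted p = 0.0082). Dhcr7, the reductase that makes cholesterol from its direct precursor, had 34.1 and 34.8 CPM in the Smad7-labelled knockout, 30.6 and 33.5 CPM in the knockout, and 32.3 and 35.4 CPM in wild type. It passed in no comparison, with log2 folds of 0.11, SE 0.068 for the Smad7-labelled knockout over the knockout and −0.08, SE 0.068 for the knockout over wild type. Offsets for GC content and length gave 0.23 (adjusted p = 0.0014) and −0.29 (adjusted p = 4.1e-05) for these, which pass, and scaling by library size gave 0.35 for the Smad7-labelled knockout over the knockout (adjusted p = 1.7e-06). The SE sets how far these data bound a change, and it does not show that the levels were equal.

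Among the sterol sensing genes, the 2 INSIG genes were higher in the knockout than in wild type while the SREBP and SCAP genes were slightly lower. Insig1, whose protein holds SCAP in the endoplasmic reticulum, lies at chromosome 5, 28071363 to 28078662, plus strand. It had 51.2 and 50.1 CPM in the Smad7-labelled knockout, 59.5 and 58.4 CPM in the knockout, and 42.2 and 47.2 CPM in wild type. It rose in the knockout relative to wild type (log2 fold 0.40, SE 0.057, adjusted p = 3.1e-10) and fell in the Smad7-labelled knockout relative to the knockout (log2 fold −0.22, SE 0.056, adjusted p = 2.4e-04). The second of these values turned to 0.03 with scaling by library size. Insig2, the related retention protein at chromosome 1, 121304353 to 121332589, minus strand, had 36.97 and 36.3 CPM in the Smad7-labelled knockout, 26.9 and 27.2 CPM in the knockout, and 19.2 and 19.6 CPM in wild type. It rose at each step, with log2 folds of 0.44, SE 0.070, in the Smad7-labelled knockout over the knockout and 0.48, SE 0.078, in the knockout over wild type, and stood 1.89-fold higher in the Smad7-labelled knockout than in wild type (adjusted p = 3.2e-23). These Insig2 calls held in every alternative fit of single genes.

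Srebf1, which encodes the SREBP form that favours fatty acid genes, had 117 and 124 CPM in the Smad7-labelled knockout, 90.7 and 89.9 CPM in the knockout, and 104 and 100.4 CPM in wild type. It was higher in the Smad7-labelled knockout than in the knockout (adjusted p = 3.9e-16, log2 fold 0.42, SE 0.044) and slightly lower in the knockout than in wild type (log2 fold −0.17, adjusted p = 3.4e-04). Srebf2, which encodes the form that favours cholesterol genes, had 175 and 182 CPM in the Smad7-labelled knockout, 168 and 163 CPM in the knockout, and 185 and 189 CPM in wild type. Its log2 folds were 0.11 in the Smad7-labelled knockout over the knockout (adjusted p = 0.0078) and −0.18 in the knockout over wild type (adjusted p = 1.5e-05). The call of Srebf2 in the Smad7-labelled knockout was lost with no filter on low counts (0.07, adjusted p = 0.17), without the Smad7-labelled library of replicate 2 (0.08, adjusted p = 0.15) and without the knockout library of replicate 2 (0.07, adjusted p = 0.21). Counts do not distinguish the 2 promoters of Srebf1 or the cleaved from the uncleaved protein.

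Scap, the sterol-sensing escort, had 42.3 and 45.97 CPM in the Smad7-labelled knockout, 35.02 and 34.6 CPM in the knockout, and 38.6 and 41.04 CPM in wild type. It shares 13.23% of its exon bases with another gene, so its level is uncertain. It was higher in the Smad7-labelled knockout than in the knockout (adjusted p = 5.0e-07, log2 fold 0.35, SE 0.064). Its fall in the knockout relative to wild type (log2 fold −0.19, adjusted p = 0.0052) was lost without the wild-type library of replicate 2, at −0.15 and an adjusted p of 0.11. Stard4, a soluble sterol carrier, had 67.4 and 65.3 CPM in the Smad7-labelled knockout, 69.8 and 67.8 CPM in the knockout, and 64.5 and 69.8 CPM in wild type, where wild type overlapped both other groups. Its log2 folds were −0.05, SE 0.052 in the Smad7-labelled knockout over the knockout and 0.03, SE 0.051 in the knockout over wild type, and neither passed. Both passed with offsets for GC content and length, at −0.15 (adjusted p = 0.0054) and 0.17 (adjusted p = 0.0011), and with scaling by library size they stood at 0.20 and 0.18. Mylip, a ubiquitin ligase for lipoprotein receptors that the liver X receptors induce, was near the lower limit of detection, with 1.71 to 2.47 CPM over the 6 libraries, and passed in no comparison.

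Of the 9 fatty acid genes 3 fell in the Smad7-labelled knockout relative to the knockout, and they encode steps that supply acetyl-CoA and build the chain. Acly, the lyase that turns citrate into cytosolic acetyl-CoA, Acaca, the carboxylase that makes malonyl-CoA, and Fasn, the synthase that builds palmitate, all fell. All lie on chromosome 11, as does Srebf1, which rose in the same comparison (log2 fold 0.42). Acly (chromosome 11, 100476353 to 100528000, minus strand) had 329 and 345 CPM in the Smad7-labelled knockout, 598 and 595 CPM in the knockout, and 660.1 and 655 CPM in wild type. Acaca (chromosome 11, 84129672 to 84401651, plus strand) had 30.01 and 32.3 CPM in the Smad7-labelled knockout, 65.9 and 60.7 CPM in the knockout, and 88.7 and 85.7 CPM in wild type. Fasn (chromosome 11, 120805846 to 120824547, minus strand) had 435 and 460.1 CPM in the Smad7-labelled knockout, 919.5 and 880.4 CPM in the knockout, and 1168 and 1129 CPM in wild type. In each of the 3 genes the Smad7-labelled libraries were lowest, the knockout lay between and wild type was highest, with no overlap.

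Relative to the knockout, the Smad7-labelled knockout was 1.77-fold lower in Acly (log2 fold −0.82, SE 0.036, adjusted p = 1.3e-48), 2.03-fold lower in Acaca (log2 fold −1.02, SE 0.060, adjusted p = 3.2e-35) and 2.01-fold lower in Fasn (log2 fold −1.01, SE 0.036, adjusted p = 1.6e-58). The difference between the knockout and wild type ran the same way and was smaller, with log2 folds of −0.46 for Acaca (adjusted p = 2.1e-15), −0.35 for Fasn (adjusted p = 7.8e-18) and −0.14 for Acly (adjusted p = 1.9e-04). That of Acly was lost with scaling by library size, at 0.0035 (adjusted p = 0.94). The falls in the Smad7-labelled knockout held in every alternative fit of single genes.

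Scd2, the stearoyl-CoA desaturase that introduces the double bond of oleate, showed another order. It lies at chromosome 19, 44293674 to 44306864, plus strand and had 662 and 648 CPM in the Smad7-labelled knockout, 471 and 468 CPM in the knockout, and 684 and 666 CPM in wild type. The knockout was lowest, and the Smad7-labelled libraries lay just below the wild-type ones, with no overlap. Scd2 was higher in the Smad7-labelled knockout than in the knockout (adjusted p = 7.0e-27, log2 fold 0.48, SE 0.035) and lower in the knockout than in wild type (log2 fold −0.52, SE 0.035, adjusted p = 5.2e-30). Elovl6, which elongates palmitate, lies at chromosome 3, 129532355 to 129638495, plus strand and had 194 and 189 CPM in the Smad7-labelled knockout, 143 and 136 CPM in the knockout, and 228 and 231 CPM in wild type. It too was higher in the Smad7-labelled knockout than in the knockout (adjusted p = 9.9e-22, log2 fold 0.46, SE 0.040) and lower in the knockout than in wild type (log2 fold −0.72, SE 0.039, adjusted p = 5.4e-39), and wild type was highest. Fads2, which introduces the opening double bond of the polyunsaturated series, had 52.3 and 50.5 CPM in the Smad7-labelled knockout, 44.2 and 43.9 CPM in the knockout, and 55.6 and 59.6 CPM in wild type and the same order, with log2 folds of 0.22 (adjusted p = 4.0e-04) and −0.39 (adjusted p = 7.6e-10). For these 3 genes the calls in both comparisons with the knockout held in every alternative fit of single genes. Their order against wild type did not hold, since with scaling by library size the Smad7-labelled knockout stood above wild type for Scd2 (log2 fold 0.35, adjusted p = 1.9e-18), Elovl6 (0.13, adjusted p = 9.5e-04) and Fads2 (0.22, adjusted p = 1.8e-04).

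**Figure D3:**
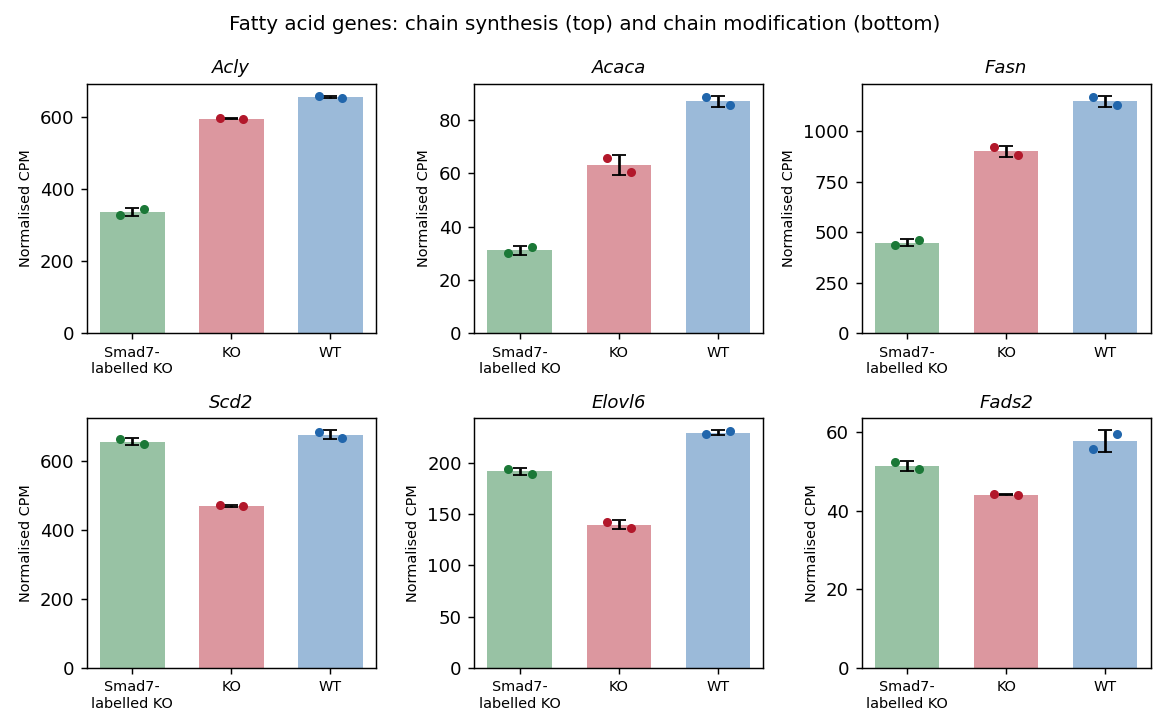
Normalised CPM of 6 fatty acid genes in the Smad7-labelled knockout, the knockout and wild type (left to right in each panel). Bars are means from 0, error bars are the SD over 2 libraries and points are libraries. Acly, Acaca and Fasn in the top row are lowest in the Smad7-labelled knockout, while Scd2, Elovl6 and Fads2 in the bottom row are lowest in the knockout.

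Close relatives on the same chromosome as Scd2 and Fads2 differed from them in the knockout over wild type. Scd1, whose gene lies 87590 bases from that of Scd2 on chromosome 19, had 84.3 and 81.5 CPM in the Smad7-labelled knockout, 77.1 and 69.9 CPM in the knockout, and 70.3 and 69.2 CPM in wild type. It did not pass in the knockout over wild type (log2 fold 0.08, adjusted p = 0.17), although it did without the knockout library of replicate 2 (0.16, adjusted p = 0.018). Its rise in the Smad7-labelled knockout (log2 fold 0.17, adjusted p = 0.0012) was lost without the same library (0.08, adjusted p = 0.23). Scd1 and Scd2 are similar in sequence, and the sources used here do not say how reads that match both were counted.

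Fads1, the second desaturase of the polyunsaturated series, lies 81141 bases from Fads2 on the same chromosome and had 72.98 and 73.4 CPM in the Smad7-labelled knockout, 75.1 and 67.2 CPM in the knockout, and 54.3 and 54.7 CPM in wild type. It rose in the knockout relative to wild type (log2 fold 0.39, SE 0.053, adjusted p = 9.2e-11), where Fads2 fell, and the Smad7-labelled knockout and the knockout overlapped (log2 fold 0.04, adjusted p = 0.47), though that fold passed at 0.20 with offsets for GC content and length (adjusted p = 0.00014) and at 0.29 with scaling by library size (adjusted p = 1.7e-07). Acss2, which makes acetyl-CoA from acetate and so bypasses Acly, had 13.5 and 12.8 CPM in the Smad7-labelled knockout, 14.4 and 14.6 CPM in the knockout, and 8.43 and 7.55 CPM in wild type. It shares 9.12% of its exon bases with other genes, so its level is uncertain. It rose 1.82-fold in the knockout relative to wild type (log2 fold 0.86, SE 0.11, adjusted p = 6.2e-12), while Acly was slightly lower there, and it did not pass in the Smad7-labelled knockout over the knockout (log2 fold −0.14, SE 0.10, adjusted p = 0.19).

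Ratios between members within a library do not depend on the scaling between libraries, though they still show only that the pair changed unequally. Per kilobase of exon, the ratio of Fasn to Scd2 was 0.328 and 0.355 in the Smad7-labelled knockout, 0.974 and 0.940 in the knockout, and 0.852 and 0.846 in wild type. The ratio of Acly to Elovl6 was 2.06 and 2.22 in the Smad7-labelled knockout, 5.11 and 5.31 in the knockout, and 3.52 and 3.45 in wild type. Fasn and Acly were thus low against Scd2 and Elovl6 in the Smad7-labelled libraries, with no overlap, and the knockout lay above wild type in both ratios. These pairs set a gene that fell in the Smad7-labelled knockout over one that rose. Their ratios therefore follow from the folds given above and are no separate test. The ratio of Fads1 to Fads2 was 0.955 and 0.997 in the Smad7-labelled knockout, 1.16 and 1.05 in the knockout, and 0.668 and 0.629 in wild type, and that of Scd2 to Scd1 was 7.04 and 7.12 in the Smad7-labelled knockout, 5.47 and 5.99 in the knockout, and 8.71 and 8.61 in wild type.

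Within the sterol genes, the ratio of Sqle to Cyp51 per kilobase was 0.357 and 0.364 in the Smad7-labelled knockout, 0.597 and 0.532 in the knockout, and 0.881 and 0.880 in wild type. This pair, which act on either side of Lss, stood in a different proportion in each group, with no overlap. The ratio of Insig1 to Insig2 was 1.55 in each Smad7-labelled library, 2.48 and 2.41 in the knockout, and 2.47 and 2.71 in wild type, so the Smad7-labelled libraries stood apart and the other groups overlapped. The ratio of Srebf1 to Srebf2 was 0.855 and 0.869 in the Smad7-labelled knockout, 0.690 and 0.704 in the knockout, and 0.712 and 0.676 in wild type, with the same pattern of overlap. The ratio of Ggps1, on the branch to protein prenylation, to Fdft1, on the branch to sterol, was 0.950 and 0.776 in the Smad7-labelled knockout, 0.395 and 0.388 in the knockout, and 0.434 and 0.488 in wild type. This ratio is uncertain, since it is not corrected for GC content and length. With such offsets Ggps1 had log2 folds of 0.14 in the Smad7-labelled knockout over the knockout and 0.09 in the knockout over wild type. Fdft1 also shares 18.31% of its exon bases with Ctsb.

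**Figure D4:**
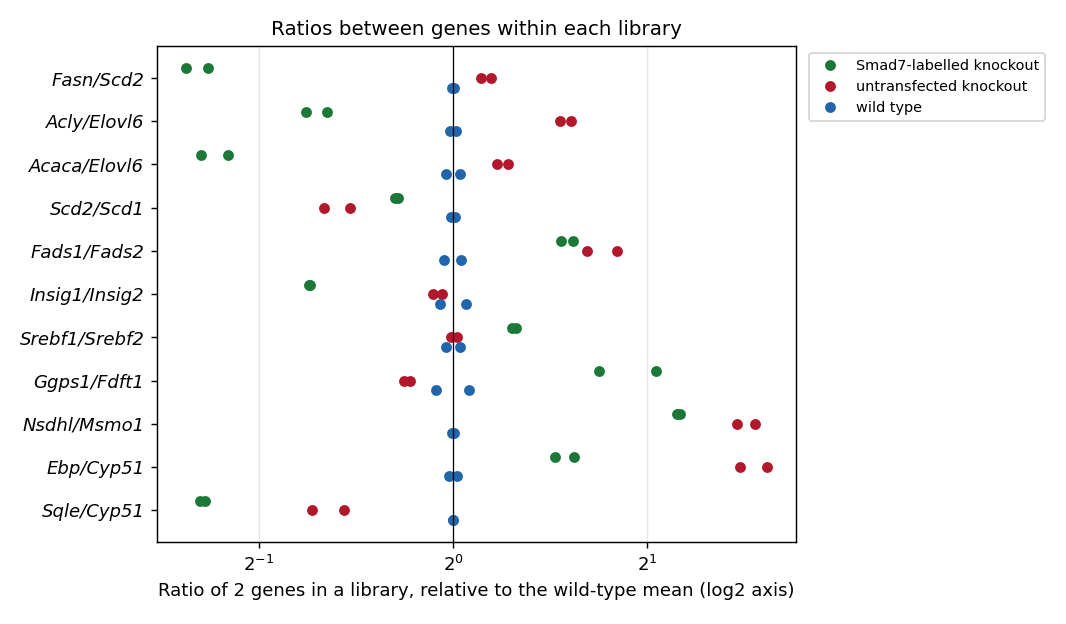
Ratio of the level per kilobase of 11 pairs of members within each library, divided by the mean ratio of wild type, on a log2 axis. Points are libraries, in green for the Smad7-labelled knockout, red for the knockout and blue for wild type. The Smad7-labelled libraries are lowest in Fasn/Scd2, Acly/Elovl6, Acaca/Elovl6, Insig1/Insig2 and Sqle/Cyp51. The knockout is highest in Nsdhl/Msmo1 and Ebp/Cyp51, where an X-linked gene is on top. It is also highest in the autosomal pairs Fasn/Scd2, Acly/Elovl6, Acaca/Elovl6 and Fads1/Fads2.

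As levels per kilobase of exon, Acly, Scd2 and Fasn led the 35 genes in all 3 groups. Scd2 stood at 119.9 CPM per kilobase in the Smad7-labelled knockout, 85.9 in the knockout and 123.6 in wild type. Acly stood at 63.8 CPM per kilobase in the Smad7-labelled knockout, 113.0 in the knockout and 124.6 in wild type, so Scd2 led in the Smad7-labelled knockout, Acly led in the knockout, and the pair lay within the spread between replicates in wild type. Fdps and Mylip were the lowest members, each under 1 CPM per kilobase. As a share of the library's raw counts, the 35 genes took 0.352% and 0.353% in the Smad7-labelled knockout, 0.352% and 0.345% in the knockout, and 0.382% and 0.379% in wild type. On that scale the Smad7-labelled knockout and the knockout overlapped, whereas the summed CPM scaled with TMM factors were lower in the Smad7-labelled knockout.

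The Smad7-labelled knockout was also set against wild type, a comparison in which genotype and transfection differ together. Of the 35 genes, 11 were higher, 17 were lower and 7 did not pass, with 43.1% of all features higher and 38.8% lower, which is 81.9% in either direction. The median log2 fold was −0.07, with 0.09 for all features. Idi1 (log2 fold −1.63), Acaca (−1.48), Fasn (−1.36), Sqle (−1.35), Fdps (−1.11) and Hsd17b7 (−1.04) were lower by more than 1 log2 unit, 6 genes, against 15.6% of all features, and none was higher by as much, against 27.4%. Insig2 (0.92), Nsdhl (0.82) and Acss2 (0.72) rose the most. With scaling by library size, which moves the median of all features to 0.48, 19 were higher and 10 lower, against 56.5% and 26.3%.

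Genes around the pathway were examined from 5 lists. The 21 genes of sterol transport, storage and SREBP processing had 13 higher and 5 lower in the knockout than in wild type, with a median log2 fold of 0.30, beside 34.5% higher, 33.3% lower and a median of 0.02 over all features. In the Smad7-labelled knockout over the knockout 8 were higher and 8 lower, beside 37.8% and 36.8% of all features. With scaling by library size 13 were higher and 3 lower, beside 49.6% and 25.9% of all features. Abca1, which exports cholesterol to apolipoproteins and is a liver X receptor target, had 239 and 223 CPM in the Smad7-labelled knockout, 243 and 229 CPM in the knockout, and 94.8 and 89.9 CPM in wild type. It rose 2.56-fold in the knockout relative to wild type (log2 fold 1.36, SE 0.042, adjusted p = 5.4e-64), and the Smad7-labelled knockout overlapped the knockout, though with scaling by library size it was higher than the knockout (0.22, adjusted p = 1.2e-07). Npc2, which hands cholesterol out of lysosomes, had 193 and 191 CPM in the Smad7-labelled knockout, 161 and 164 CPM in the knockout, and 84.99 and 84.6 CPM in wild type and was higher at each step, with log2 folds of 0.24 (adjusted p = 9.5e-09) and 0.94 (adjusted p = 7.6e-47).

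Soat1, which esterifies cholesterol for storage, had 99.4 and 95.2 CPM in the Smad7-labelled knockout, 61.3 and 58.6 CPM in the knockout, and 29.7 and 30.4 CPM in wild type. It was higher in the Smad7-labelled knockout than in the knockout (adjusted p = 6.1e-28, log2 fold 0.70, SE 0.050) and in the knockout than in wild type (log2 fold 1.00, SE 0.060, adjusted p = 3.7e-34). Lpin1, a phosphatidate phosphatase that also acts on SREBP in the nucleus, had 118 and 119.9 CPM in the Smad7-labelled knockout, 45.01 and 44.01 CPM in the knockout, and 24.5 and 24.5 CPM in wild type, and rose 2.67-fold in the Smad7-labelled knockout relative to the knockout (adjusted p = 8.8e-59, log2 fold 1.42, SE 0.051) and 1.82-fold in the knockout relative to wild type (log2 fold 0.86, SE 0.066, adjusted p = 1.4e-25).

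A further 4 genes of this list were picked after their values were seen. Abcg1, a sterol exporter, averaged 31.5 ± 0.327 CPM in the Smad7-labelled knockout, 20.6 ± 0.461 CPM in the knockout and 7.61 ± 0.0842 CPM in wild type (SD, n = 2 each). Soat2, the other cholesterol esterifying enzyme, averaged 16.3 ± 0.368 CPM in the Smad7-labelled knockout, 9.32 ± 0.425 CPM in the knockout and 4.06 ± 0.843 CPM in wild type. Npc1, the lysosomal partner of Npc2, averaged 75.1 ± 0.279 CPM in the Smad7-labelled knockout, 64.1 ± 0.711 CPM in the knockout and 37.4 ± 0.356 CPM in wild type. All of these rose at both steps, with log2 folds in the Smad7-labelled knockout over the knockout of 0.61, 0.81 and 0.23, and in the knockout over wild type of 1.44, 1.20 and 0.78. Tmem97, a sterol-regulated binding partner of Npc1, went the other way and averaged 18.6 ± 1.64 CPM in the Smad7-labelled knockout, 42.2 ± 3.53 CPM in the knockout and 79.7 ± 0.898 CPM in wild type, with log2 folds of −1.17 (adjusted p = 1.1e-32) and −0.92 (adjusted p = 1.3e-33). The calls of these 4 genes in both comparisons held in every alternative fit of single genes.

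**Figure D5:**
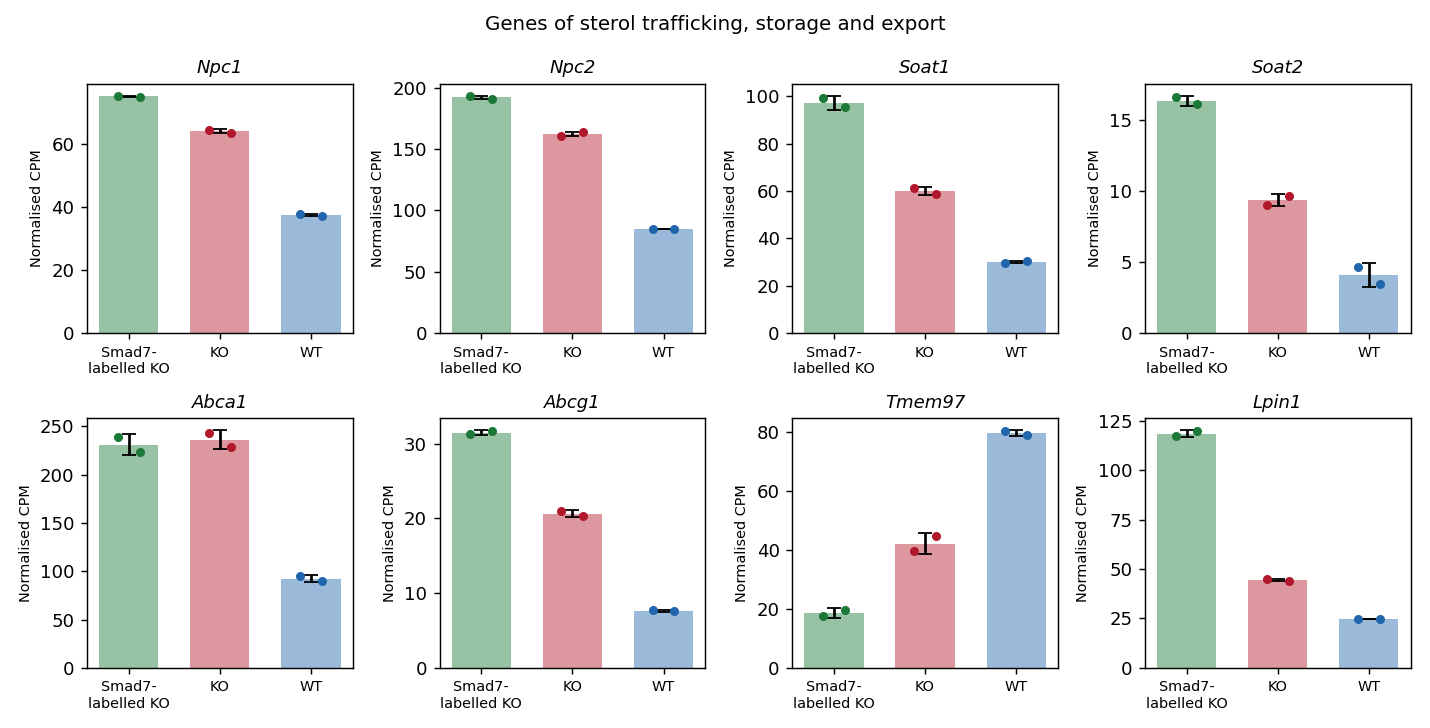
Normalised CPM of 8 genes of sterol trafficking, storage and export in the Smad7-labelled knockout, the knockout and wild type (left to right in each panel). Bars are means from 0, error bars are the SD over 2 libraries and points are libraries. Of the 8 genes, 7 are lowest in wild type, and Tmem97 is highest there. The genes are the 4 of their list with the smallest adjusted p and 4 picked after their values were seen. This count therefore follows from the choice and does not describe the list. Among genes of the list not shown, Rnf139, Erlin1, Nfyb and Nfyc were lower in the knockout than in wild type.

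The enzymes that use isoprenoids, 9 genes, had 1 higher and 5 lower in the knockout than in wild type. In the Smad7-labelled knockout over the knockout 2 of the 9 were higher and 7 lower. Of all features 34.5% were higher and 33.3% lower in the first comparison, and 37.8% and 36.8% in the second. In the knockout 3 of the 9 genes were higher than in wild type with scaling by library size, beside 41.8% of all features. Fnta, the alpha subunit shared by the farnesyl and geranylgeranyl transferases, had 90.1 and 80.8 CPM in the Smad7-labelled knockout, 171 and 175 CPM in the knockout, and 197 and 201 CPM in wild type. It fell 2.03-fold in the Smad7-labelled knockout relative to the knockout (adjusted p = 3.0e-49, log2 fold −1.02, SE 0.043), and its small fall in the knockout (log2 fold −0.20) was lost with scaling by library size (−0.06, adjusted p = 0.16). Pggt1b, its catalytic partner in the geranylgeranyl enzyme, had 60.98 and 57.8 CPM in the Smad7-labelled knockout, 29.1 and 24.6 CPM in the knockout, and 78.03 and 71.2 CPM in wild type, so it was 2.21-fold higher in the Smad7-labelled knockout than in the knockout (adjusted p = 1.8e-34, log2 fold 1.14, SE 0.064) and 2.78-fold lower in the knockout than in wild type (log2 fold −1.47, SE 0.062, adjusted p = 4.0e-46). Fntb, its catalytic partner in the farnesyl enzyme, had log2 folds of −0.38 and 0.49 in those comparisons, opposite in sign to Pggt1b. Nus1, which with Dhdds makes dolichol precursors, fell in both (−0.37 and −0.57).

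The electron donors of the sterol and desaturase enzymes, 4 genes, had none higher and 3 lower in the Smad7-labelled knockout than in the knockout. In the knockout over wild type 1 was higher and 2 were lower. Of all features 37.8% were higher and 36.8% lower in the first comparison, and 34.5% and 33.3% in the second. Cyb5a, the cytochrome that feeds electrons to desaturases, fell in both (log2 folds −0.42 and −0.27). Cyb5b, its mitochondrial relative, fell in both as well (−0.67 and −0.25). Por, the reductase that serves Cyp51 and Sqle, had log2 folds of −0.22 (adjusted p = 0.0012) and −0.07 (adjusted p = 0.27), and with scaling by library size these were 0.03 and 0.07. Cyb5r3, the reductase of those cytochromes, had 0.07 (adjusted p = 0.097) and 0.11 (adjusted p = 0.012). Its call in the knockout was lost without the knockout library of replicate 2 (0.11, adjusted p = 0.055) and without the wild-type library of replicate 1 (0.09, adjusted p = 0.11), and offsets for GC content and length gave −0.08. In the Smad7-labelled knockout it passed without the Smad7-labelled library of replicate 1 (0.12, adjusted p = 0.018) and with scaling by library size (0.32, adjusted p = 1.0e-12).

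Of 22 tested genes of fatty acid supply, elongation and activation, 14 were higher and 2 lower in the knockout than in wild type. Of all features 34.5% were higher and 33.3% lower. The 22 genes had a median log2 fold of 0.22, though by DESeq2 8 were higher, beside 25.3% of all features. In the Smad7-labelled knockout over the knockout 10 were higher and 9 lower, beside 37.8% and 36.8% of all features. With scaling by library size 5 were lower there, beside 25.9% of all features. Me1, the malic enzyme that supplies NADPH, had 76.9 and 75.6 CPM in the Smad7-labelled knockout, 64.6 and 64.1 CPM in the knockout, and 25.7 and 23.5 CPM in wild type and rose in the knockout relative to wild type (log2 fold 1.39, SE 0.062, adjusted p = 2.1e-47). Elovl7, an elongase of saturated chains, had 36.5 and 31.2 CPM in the Smad7-labelled knockout, 25.3 and 25.9 CPM in the knockout, and 6.25 and 5.93 CPM in wild type and rose 4.2-fold there (log2 fold 2.07, SE 0.10, adjusted p = 1.6e-41), where Elovl6 fell. Acsl4, an X-linked acyl-CoA synthetase that prefers arachidonate, fell in the knockout relative to wild type (log2 fold −1.05, SE 0.061, adjusted p = 2.3e-34), against the direction of most X-linked genes, and was higher in the Smad7-labelled knockout than in the knockout (log2 fold 0.86). Acsl1, another acyl-CoA synthetase, had log2 folds of −0.40 and 0.86 in those comparisons.

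Of 16 tested genes of fatty acid oxidation, 4 were higher and 10 lower in the Smad7-labelled knockout than in the knockout. In the knockout over wild type 10 were higher and 4 lower. Of all features 37.8% were higher and 36.8% lower in the first comparison, and 34.5% and 33.3% in the second. The oxidation genes lower numbered 6 and 2 with scaling by library size, beside 25.9% of all features lower in each comparison. The median log2 folds of the oxidation genes were −0.31 and 0.41. Acadm, the medium-chain dehydrogenase, and Hadha, the subunit of the mitochondrial trifunctional protein, fell in the Smad7-labelled knockout (−0.75 and −0.61). Hadha was slightly higher in the knockout than in wild type (log2 fold 0.16, adjusted p = 1.8e-04), which offsets for GC content and length turned to −0.05 (adjusted p = 0.18). Cpt1c, a carnitine palmitoyltransferase relative best known in neurons, went the other way (1.28) and was also higher in the knockout than in wild type (0.86). These lists were described by counts, and their share of calls is to be read against the 67.7% of all features that passed in the knockout over wild type and the 74.6% that passed in the Smad7-labelled knockout over the knockout.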

How the data were processed

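RNA counts per gene were compared between 3 groups of 2 libraries. The authors deposited raw read counts per gene symbol, as whole numbers without normalisation. STAR and featureCounts 1.6.3 and the builds mm10 and GRCm38 are named, with no role or order, per the submitters' processing notes. Neither the annotation release nor the strand setting nor the handling of shared reads is named in the sources used here. Of 8 count columns 6 carried a name that the labels give, and 2 matched no label and were used in no step, so lncSmad7-transfected cells were not analysed here. No row lacked a gene name.

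Features were filtered with filterByExpr, which left 17342, scaled with TMM factors and tested by edgeR's quasi-likelihood test (robust) in a fit of the 3 groups (edgeR 4.0.16, limma 3.58.1, R 4.3.3, 3 residual degrees of freedom). Benjamini-Hochberg adjustment ran over all features tested, with a threshold of 0.05, and no p was adjusted over the 35 genes alone. The common biological coefficient of variation was 2.47%. The scripts were tested on simulated counts. Replicates differed by more than sampling noise (chi-square per degree of freedom from 1.57 to 1.89), so none was taken for a second deposit. Same-numbered libraries did not deviate together (correlations 0.026, 0.0053 and 0.0057), so the numbers were not taken to pair them.

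The 35 genes and all lists were chosen with earlier results of these data known. All 35 are accounted for, and from each other list up to 4 genes with the smallest adjusted p in either main comparison are named, apart from 1 gene that is not reported here. Positions and exon lengths came from the GENCODE mouse annotation (GRCm38), and overlaps were found from its exons. Library totals ran from 13392941 to 20209760 counts, and the lowest members, Fdps and Mylip, have the widest errors. Alternatives were RLE scaling, library size scaling, DESeq2 1.42.0, no filter, a filter of 1 CPM in 4 libraries, a replicate block, fits restricted to the groups compared, offsets for GC content and length (mgcv 1.9.3), a minimum log2 fold of 1, and each library left out in turn, where a lone library is assumed to vary like the other groups.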

Additional observations from a re-analysis of the deposited data

How the results depend on the processing

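Depth set by 13392941 to 20209760 counts per library leaves Fdps and Mylip with the widest errors, and scaling was the choice that moved most values. Of the 35 genes, 16 kept their side of the threshold and their direction in every alternative fit in the Smad7-labelled knockout over the knockout, 18 in the Smad7-labelled knockout over wild type and 18 in the knockout over wild type. With scaling by library size the members lower numbered 9, 10 and 11 in those comparisons, with 19 higher in the second. The share of all calls that were higher was then 65.7%, 68.3% and 61.7%, against 50.7%, 52.6% and 50.9% with TMM factors. At a minimum log2 fold of 1, which takes fewer genes by construction, 0 were higher and 2 lower, 0 higher and 6 lower, and 2 higher and 1 lower. Leaving out any library lowered the share of all features called, in each comparison and direction. With each library left out, members higher numbered 8 to 12, 8 to 11 and 7 to 9, and members lower 13 to 16, 16 to 18 and 18 to 21. With the replicate number as a block, 13 were higher and 15 lower, 11 higher and 18 lower, and 8 higher and 20 lower, so the block moved counts by at most 1, and the numbers were not taken to pair libraries. The cause of the changes of sign that follow was not tested. With RLE scaling the sign turned in the Smad7-labelled knockout over wild type for Dhcr7 (−0.021) and Mylip (−0.013), in the knockout over wild type for Stard4 (−0.021). With scaling by library size the sign turned in the Smad7-labelled knockout over the knockout for the median of the 35 (0.11), Abca1 (0.22), Por (0.030), Tm7sf2 (0.019), Nsdhl (0.024), Insig1 (0.028), Stard4 (0.20), Mylip (0.018) and Acss2 (0.11), in the Smad7-labelled knockout over wild type for the median of the 35 (0.32), Smad7 (0.38), lncSmad7 (0.13), Mvk (0.033), Pmvk (0.035), Cyp51 (0.33), Msmo1 (0.050), Srebf2 (0.32), Stard4 (0.37), Scd2 (0.35), Elovl6 (0.13) and Fads2 (0.22), in the knockout over wild type for Por (0.069), Acadm (0.11), Pmvk (0.13), Mvd (0.014), Sc5d (0.099), Dhcr7 (0.065) and Acly (0.0035). By DESeq2 the sign turned in the Smad7-labelled knockout over wild type for Dhcr7 (−0.021) and Mylip (−0.013), in the knockout over wild type for Stard4 (−0.021). With no filter on low counts the sign turned in the Smad7-labelled knockout over the knockout for Hmgcs1 (−0.0065) and Fads1 (−0.0005), in the Smad7-labelled knockout over wild type for Dhcr7 (−0.0009). With a filter of 1 CPM in 4 libraries the sign turned in the Smad7-labelled knockout over the knockout for Abca1 (0.070) and Stard4 (0.050), in the Smad7-labelled knockout over wild type for the median of the 35 (0.037), Smad7 (0.094), Cyp51 (0.047), Srebf2 (0.037), Stard4 (0.090) and Scd2 (0.064). Fitted on only the libraries compared the sign turned in the knockout over wild type for Pmvk (0.0050). With offsets for GC content and length the sign turned in the Smad7-labelled knockout over the knockout for Hmgcs1 (−0.089), in the Smad7-labelled knockout over wild type for Cyp51 (0.023), Dhcr7 (−0.066), Scap (−0.099) and Stard4 (0.026), in the knockout over wild type for Cyb5r3 (−0.083), Hadha (−0.053), Ggps1 (0.086) and Sc5d (0.21). With each library left out, log2 folds in the Smad7-labelled knockout over the knockout spanned 0 for Abca1 −0.096 to 0.012, Fads1 −0.059 to 0.10 and Hmgcs1 −0.058 to 0.090. With each library left out, log2 folds in the Smad7-labelled knockout over wild type spanned 0 for Dhcr7 −0.057 to 0.076, Mylip −0.16 to 0.22, Smad7 −0.048 to 0.028 and Stard4 −0.093 to 0.020. With each library left out, log2 folds in the knockout over wild type spanned 0 for Acadm −0.083 to 0.024, Pmvk −0.087 to 0.063, Sc5d −0.13 to 0.043 and Stard4 −0.022 to 0.093.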
